A study of Mus musculus with 12 samples.

Results

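Beta-defensins, the calprotectin subunits and 2 secreted proteins that guard epithelial surfaces were followed in mouse rectum after deletion of Apc. The set held 9 genes, Defb1, Defb3, Defb4, Defb6, Defb14, S100a8, S100a9, Slpi and Lcn2, taken from the expression table by gene symbol. All 9 were found among 27785 genes, and all 9 passed the filter on low values. That filter asked for at least 1 FPKM (a fragment count corrected for transcript length and sequencing depth) in at least 2 of 12 libraries, so a gene could pass through the group in which it was high.

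RNA was sequenced from bulk rectum in 12 libraries of 4 groups. The Lgr5-Cdx2-Apc group (2 libraries, Lgr5creER;CDX2creER;APC flox) carried both tamoxifen-inducible Cre drivers and floxed Apc. The Lgr5-Apc group (4 libraries, Lgr5creER;APC flox) and the Cdx2-Apc group (3 libraries, CDX2creER;APC flox) carried 1 driver each. The control group (3 libraries) is titled WT, while its genotype entry reads CDX2creER;APC flox with WT in brackets, so the labels do not settle whether these mice carried the Cre or the floxed allele. A treatment note of 25 mg/kg tamoxifen, given ip for 5 days, accompanies every sample, but the treatment characteristic is missing from the control samples. Lgr5 marks the stem cells at the base of intestinal crypts and Cdx2 is a transcription factor of the intestinal epithelium, and the cells in which each driver deleted Apc were not examined here. Age, sex, strain and pooling of animals are not given, so p-values here reflect only how these samples vary, which may be technical variation.

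Beta-defensins are short, cysteine-rich cationic peptides that epithelial cells secrete and that damage microbial membranes. S100a8 and S100a9 pair to form calprotectin, a metal-binding protein of neutrophils and of stressed keratinocytes that acts as an alarmin, a signal of tissue damage. Slpi (secretory leukocyte protease inhibitor) restrains serine proteases such as neutrophil elastase, and Lcn2 (lipocalin 2) withholds iron from bacteria by binding their siderophores. In skin, several of these genes are induced in keratinocytes by injury and by interleukins, and the rectum ends at the anal canal, where columnar gut epithelium meets stratified squamous epithelium.

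Defb14, Defb4, Defb6 and Defb3 lay in this order, all on the plus strand, in 1 cluster on mouse chromosome 8 (GENCODE M21 on GRCm38). Defb6 spanned chr8:19225478-19228209, 23.9 kb beyond Defb4 and 65.2 kb before Defb3, while Defb14 and Defb4 lay 3.49 kb apart. Defb1 lay outside this cluster at chr8:21776599-21795185. S100a8 (chr3:90668978-90670035, plus strand) and S100a9 (chr3:90692632-90695721, minus strand) were 22.6 kb apart, and Slpi (chr2:164354070-164389095) and Lcn2 (chr2:32384633-32388252) lay on the minus strand of chromosome 2. RefSeq promoter windows (GRCm38.p6, 250 bases before to 50 after the start) were at hand for 6 of the 9 genes. The windows of Defb3 and Defb6 are shown because these genes lie in 1 cluster and yet differed in level between the groups, and those of S100a8 and S100a9 because the levels of these genes moved together. They cover chr8:19293111-19293410 (plus strand), chr8:19225228-19225527 (plus strand), chr3:90668821-90669120 (plus strand) and chr3:90695672-90695971 (minus strand). Each is written 5′ to 3′ along its gene, with capitals for motif matches.
Defb3: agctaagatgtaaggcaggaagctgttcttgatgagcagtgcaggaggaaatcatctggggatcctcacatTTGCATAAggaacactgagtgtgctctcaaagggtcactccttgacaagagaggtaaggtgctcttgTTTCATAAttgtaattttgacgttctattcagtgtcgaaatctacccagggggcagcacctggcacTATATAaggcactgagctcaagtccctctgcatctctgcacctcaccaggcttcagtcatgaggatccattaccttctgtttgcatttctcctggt
Defb6: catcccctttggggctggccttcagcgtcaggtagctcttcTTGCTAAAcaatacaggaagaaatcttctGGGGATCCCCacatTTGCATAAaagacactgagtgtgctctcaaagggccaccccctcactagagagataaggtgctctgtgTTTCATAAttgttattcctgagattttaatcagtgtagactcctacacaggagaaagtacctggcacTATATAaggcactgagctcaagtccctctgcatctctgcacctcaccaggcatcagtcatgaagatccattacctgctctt
S100a8: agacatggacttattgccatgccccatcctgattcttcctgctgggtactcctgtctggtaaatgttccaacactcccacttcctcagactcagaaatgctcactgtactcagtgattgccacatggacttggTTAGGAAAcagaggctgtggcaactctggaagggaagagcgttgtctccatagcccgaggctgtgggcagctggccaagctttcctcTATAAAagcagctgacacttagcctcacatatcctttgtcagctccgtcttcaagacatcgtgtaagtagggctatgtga
S100a9: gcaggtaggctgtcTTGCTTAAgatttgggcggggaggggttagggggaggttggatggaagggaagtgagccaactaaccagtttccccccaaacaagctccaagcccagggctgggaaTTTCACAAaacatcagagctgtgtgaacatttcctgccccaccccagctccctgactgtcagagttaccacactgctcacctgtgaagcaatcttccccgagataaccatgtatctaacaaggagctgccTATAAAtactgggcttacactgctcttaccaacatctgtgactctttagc
The capitals mark C/EBP (TTNNGNAA), the TATA box (TATANA, gene strand only) and, in Defb6, NF-kB. C/EBP, AP-1 (TGANTCA), STAT (TTCNNNGAA) and NF-kB were searched on both strands. The Defb3 window held 2 C/EBP matches and 1 TATA box. In the Defb6 window there were 3 C/EBP matches, 1 TATA box and 1 NF-kB match. A C/EBP match was found in all 6 windows, against 40.7% of 32851 mouse promoter windows of the same length. The TATA box was in the 4 windows shown and in 18% of all windows, NF-kB in 8.46%, AP-1 in 7.81% and STAT in 8.3%. The TATA match began at -46 from the annotated start in Defb3, -31 in Defb6 and -30 in S100a8. In S100a9 it began at 0, the start itself, which is not the usual place of a TATA box. No AP-1 or STAT letters were in the 6 windows. The Defb3 and Defb6 windows were identical at 77.5% of 315 aligned columns, against 47.6% to 53.7% for the other pairs of windows. These matches describe letters and do not show binding.

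The libraries differed in their epithelium, within groups as well as between them. A squamous score, the mean log2(FPKM + 1) of 22 markers of stratified squamous epithelium such as Krt5, Krt14, Krt1 and Krt4, was 6.996 and 8.48 in Lgr5-Cdx2-Apc, and 4.44, 9.34, 8.40 and 0.81 in Lgr5-Apc. It was 0.93, 1.19 and 4.34 in Cdx2-Apc and 6.32, 2.06 and 1.85 in control. Lgr5-Apc 2, Lgr5-Cdx2-Apc 2 and Lgr5-Apc 3 thus had the highest scores, followed by Lgr5-Cdx2-Apc 1 and control 1. The columnar score of 9 markers such as Epcam and Krt8 was 3.75 to 6.33 in Lgr5-Cdx2-Apc, 6.23 to 8.55 in Lgr5-Apc, 8.32 to 8.62 in Cdx2-Apc and 7.92 to 8.55 in control. Smooth muscle parted the groups further: its 7 markers had a mean score of 2.50 to 3.38 in Lgr5-Cdx2-Apc, 6.51 to 8.74 in Lgr5-Apc, 7.73 to 9.16 in Cdx2-Apc and 8.65 to 8.97 in control. Their summed level was 52.5 to 78.9 FPKM in Lgr5-Cdx2-Apc, 698 to 3399 FPKM in Lgr5-Apc, 1647 to 4428 FPKM in Cdx2-Apc and 3194 to 3956 FPKM in control. The score of 8 goblet cell markers was 4.67 to 7.04 in Lgr5-Cdx2-Apc, 5.83 to 9.94 in Lgr5-Apc, 8.44 to 8.77 in Cdx2-Apc and 7.19 to 9.02 in control. The part of these shifts in tissue makeup in the differences of Lgr5-Cdx2-Apc from other groups was not tested. Apc itself was at 13.5 to 15.0 FPKM in Lgr5-Cdx2-Apc, 14.1 to 18.6 in Lgr5-Apc, 15.3 to 17.6 in Cdx2-Apc and 15.9 to 18.8 in control, a value per gene that need not show the loss of a floxed exon. Cdx2 was at 150.8 FPKM in Lgr5-Apc 4, against 0.836, 0.248 and 0.858 FPKM in Lgr5-Apc 1, 2 and 3. It was at 1.44 to 18.5 FPKM in Lgr5-Cdx2-Apc, 15.7 to 30.4 in Cdx2-Apc and 2.71 to 22.0 in control. Lgr5 was at 4.72 FPKM in Lgr5-Apc 4, against 1.75, 1.30 and 1.40 FPKM in Lgr5-Apc 1, 2 and 3. Why Lgr5-Apc 4 stood apart from its group was not tested. Xist was at 0.702 to 1.12 FPKM in Cdx2-Apc and at 61.1 FPKM or more in every other library, while the Y-linked Ddx3y was at 13.9 to 15.9 FPKM in Cdx2-Apc and at 1.81 FPKM or less elsewhere. Genotype and sex thus cannot be told apart in comparisons with Cdx2-Apc.

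**Figure D1:**
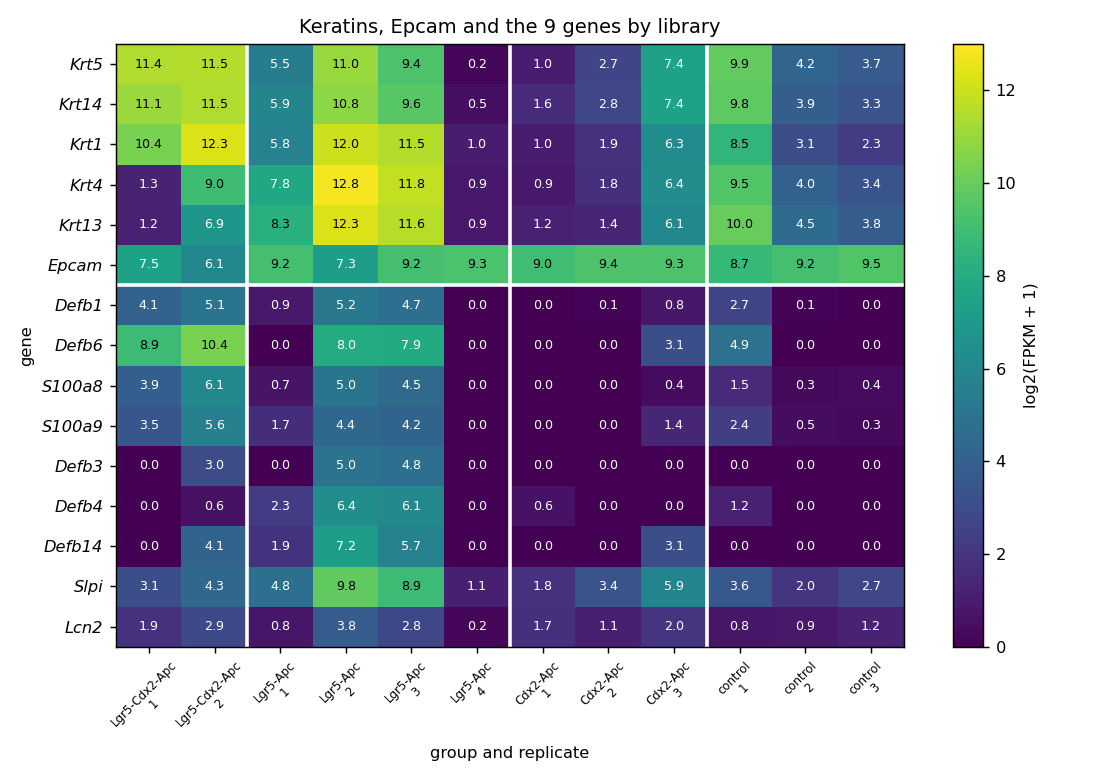
Colour and printed numbers give log2(FPKM + 1) of keratins, Epcam and the 9 genes (down) in each of the 12 libraries (across, by group and replicate). Defb6 is bright in both Lgr5-Cdx2-Apc libraries and in Lgr5-Apc 2 and 3, whereas Slpi, Defb4, Krt4 and Krt13 are brightest in Lgr5-Apc 2 and 3.

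Among the defensins, Defb6 reached the highest level of the 9 genes and was highest in Lgr5-Cdx2-Apc. It had 479.9 and 1344 FPKM in Lgr5-Cdx2-Apc. The Lgr5-Apc libraries had 0, 252 and 244 FPKM in libraries 1 to 3 and 0 FPKM in library 4. Cdx2-Apc libraries had 0, 0 and 7.61 FPKM and control libraries 28.2, 0 and 0 FPKM. Both Lgr5-Cdx2-Apc libraries lay above every other library, and 6 of 12 libraries were listed at 0. Defb6 is known from mouse skeletal muscle as well as from epithelia, and in these samples the mean score of skeletal muscle markers was 4.80 and 5.07 in Lgr5-Cdx2-Apc, 4.96 in Lgr5-Apc 2 and 2.25 or less in the other 9 libraries. Lgr5-Apc 3, with 244 FPKM of Defb6, had a muscle score of 1.29. The part of muscle RNA in the Defb6 level was not tested.

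Defb1, a defensin that many epithelia make without induction, followed the same libraries at a lower level. Its values were 16.1 and 32.2 FPKM in Lgr5-Cdx2-Apc and 0.856, 36.0, 25.8 and 0 FPKM in Lgr5-Apc. Cdx2-Apc libraries had 0, 0.0900 and 0.779 FPKM, and control libraries had 5.59, 0.0973 and 0 FPKM. Lgr5-Cdx2-Apc thus did not overlap with Cdx2-Apc or control, but lay within the range of Lgr5-Apc.

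Defb4, Defb14 and Defb3 had another order of libraries. Defb4, an inducible defensin counted as a mouse counterpart of human beta-defensin 2, had 0 and 0.477 FPKM in Lgr5-Cdx2-Apc and 3.93, 80.8, 67.7 and 0 FPKM in Lgr5-Apc. In Cdx2-Apc it had 0.533, 0 and 0 FPKM, and in control 1.30, 0 and 0 FPKM. Only Lgr5-Apc libraries 1, 2 and 3 exceeded 1.30 FPKM, and both Lgr5-Cdx2-Apc libraries stayed below 1 FPKM. Of the 50-base stretches of Defb4 transcripts, 5.68% also occur in Defb8, so part of its level could come from that gene; no such stretch was shared for the other 8 genes.

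Defb14, the mouse counterpart of human beta-defensin 3, had 0 and 16.4 FPKM in Lgr5-Cdx2-Apc and 2.80, 150.7, 52.6 and 0 FPKM in Lgr5-Apc. It had 0, 0 and 7.62 FPKM in Cdx2-Apc and was listed at 0 in all 3 control libraries. Defb3, a further inducible epithelial defensin, was listed at 0 in 9 libraries and had values in 3: 7.24 FPKM in Lgr5-Cdx2-Apc 2, 30.3 FPKM in Lgr5-Apc 2 and 26.2 FPKM in Lgr5-Apc 3. For both genes the highest levels were those of Lgr5-Apc 2 and 3, and the Lgr5-Cdx2-Apc libraries were split, with library 1 at 0.

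The calprotectin genes had the order of Defb1 and Defb6 rather than that of Defb4. S100a8 had 13.8 and 66.4 FPKM in Lgr5-Cdx2-Apc and 0.618, 31.9, 21.7 and 0 FPKM in Lgr5-Apc. In Cdx2-Apc it had 0, 0 and 0.325 FPKM and in control 1.90, 0.193 and 0.301 FPKM. S100a9 had 10.3 and 49.0 FPKM in Lgr5-Cdx2-Apc and 2.24, 20.3, 17.0 and 0 FPKM in Lgr5-Apc, against 0, 0 and 1.59 FPKM in Cdx2-Apc and 4.27, 0.367 and 0.213 FPKM in control. For both subunits the Lgr5-Cdx2-Apc libraries lay above all Cdx2-Apc and control libraries and overlapped with Lgr5-Apc. The ratio of S100a8 to S100a9 was 1.34 and 1.36 in Lgr5-Cdx2-Apc, 1.57 and 1.28 in Lgr5-Apc 2 and 3, and 0.276 in Lgr5-Apc 1, where both levels were low.

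Calprotectin is also abundant in neutrophils. Of 16 markers, 14 were in the table and 5 were tested; Mpo and Elane were not analysed here. The mean log2(FPKM + 1) of the 14 markers was 1.25 to 1.27 in Lgr5-Cdx2-Apc, 0.11 to 1.37 in Lgr5-Apc, 0.56 to 1.01 in Cdx2-Apc and 0.75 to 1.30 in control. The 5 libraries with the highest score were both Lgr5-Cdx2-Apc libraries, Lgr5-Apc 2 and 3 and control 1. These were also the 5 highest in S100a8 and in S100a9. They were the 5 with the highest squamous scores too (6.32 to 9.34), so neutrophils and squamous cells cannot be told apart by this order. Of the 14 markers, 9 were highest in an Lgr5-Cdx2-Apc library, and the share of all genes highest there was not counted. Among these 9, Fpr1, Fpr2, Stfa2l1, Mrgpra2b and Mmp8 peaked at 0.603 FPKM or less. The summed level had another order, with 61.6 to 83.0 FPKM in Lgr5-Cdx2-Apc, 1.48 to 195 FPKM in Lgr5-Apc, 95.8 to 156 FPKM in Cdx2-Apc and 164 to 237 FPKM in control. In that sum Ly6g peaked at 169 FPKM in control 2, Ltf at 118 FPKM in control 1 and Il1r2 at 81.4 FPKM in Lgr5-Apc 2, with up to 64.5 FPKM of Il1r2 in Lgr5-Cdx2-Apc. The granule genes Ngp and Camp reached no more than 0.0639 and 0.217 FPKM in any library, and Ngp was listed at 0 in 11 of 12. Retnlg peaked at 0.251 FPKM, Csf3r at 0.955 FPKM and Cxcr2 at 2.48 FPKM, each in Lgr5-Cdx2-Apc 2, and Mmp9 at 9.35 FPKM in Lgr5-Cdx2-Apc 1. The part of neutrophils in the S100a8 and S100a9 levels was not tested.

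Slpi was the most abundant of the 9 genes in Lgr5-Apc and the only one of them above 1 FPKM in every library. It had 7.86 and 19.0 FPKM in Lgr5-Cdx2-Apc and 26.0, 894, 480.9 and 1.21 FPKM in Lgr5-Apc. Cdx2-Apc libraries had 2.57, 9.27 and 56.9 FPKM, and control libraries had 10.98, 3.08 and 5.73 FPKM. Lgr5-Cdx2-Apc overlapped with every other group. Lcn2 stayed low, with 2.62 and 6.31 FPKM in Lgr5-Cdx2-Apc, 0.732, 12.8, 6.15 and 0.166 FPKM in Lgr5-Apc, 2.35, 1.19 and 2.88 FPKM in Cdx2-Apc, and 0.736, 0.831 and 1.36 FPKM in control. Lgr5-Apc held both the highest and the lowest Lcn2 level.

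**Figure D2:**
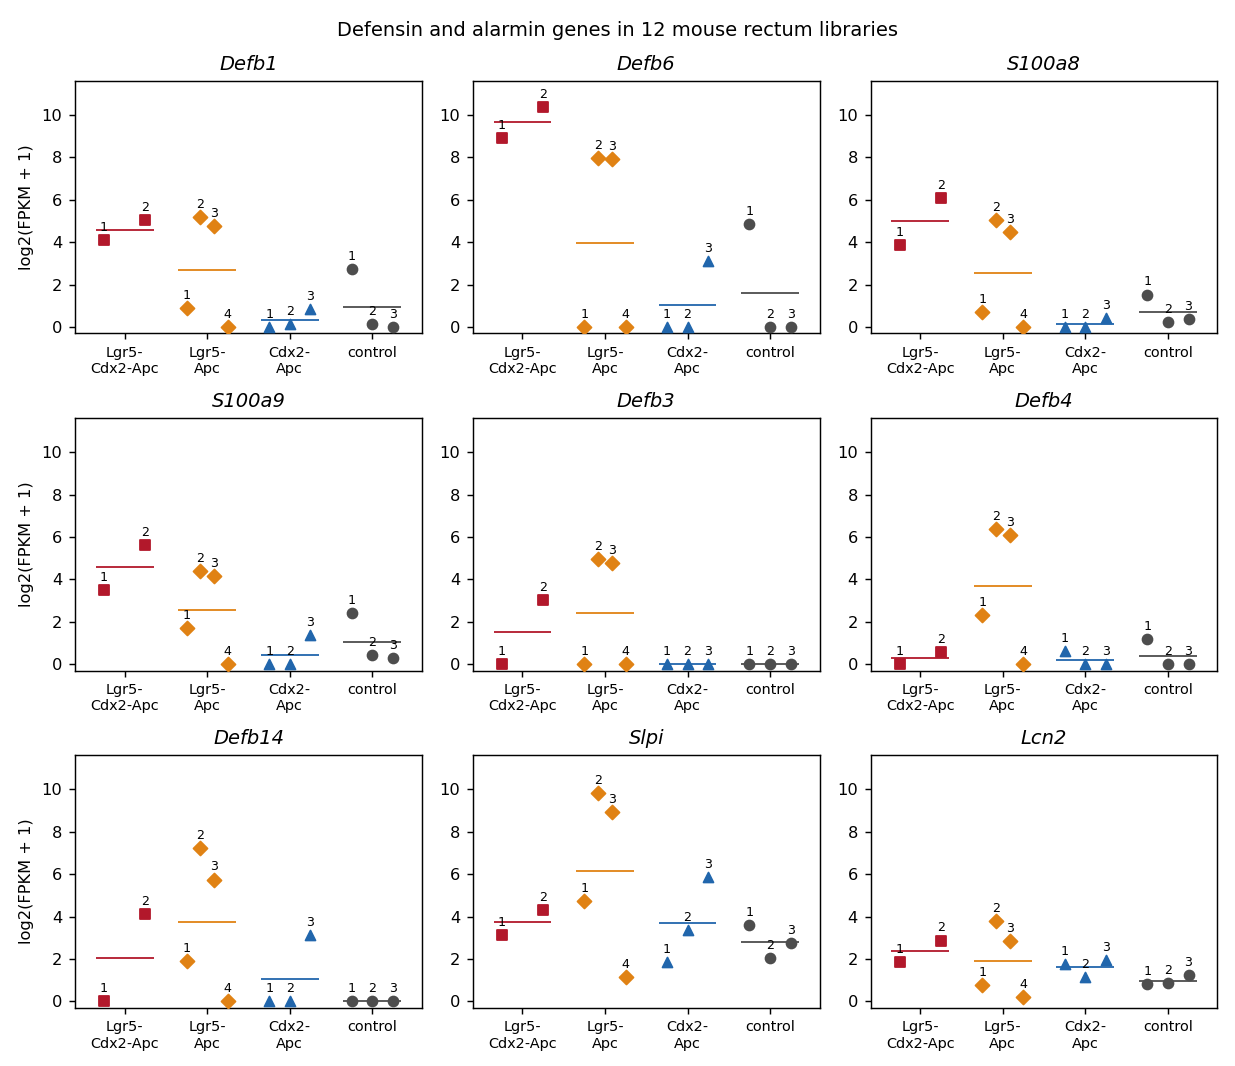
Each panel shows 1 gene; points are libraries, numbered by replicate, on a log2(FPKM + 1) scale by group, and bars are group means of these log values. Replicates 2 and 3 of Lgr5-Apc are apart from replicates 1 and 4 in the 9 panels, and Defb6 is the gene in which both Lgr5-Cdx2-Apc points lie above all others.

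Whether Apc deletion with both drivers changed these genes was asked against control first. Differences are of log2(FPKM + 1), which understates the change of low genes, and were tested with limma over 17360 genes; a gene was called at a Benjamini-Hochberg adjusted p below 0.05. Called genes made up 19.1% of all genes tested in Lgr5-Cdx2-Apc against control, and 0 of the 9 genes were called. Unadjusted, 4 of 9 had p below 0.05 in limma, against 6412 of all 17360 genes. The 9 genes had 8 differences above 0 and a median of 2.06, against 9359 of all 17360 genes above 0 and a median of 0.07. The libraries did not overlap for Defb1, Defb6, S100a8, S100a9 and Lcn2, 5 of 9, and for 32.1% of all genes in this direction. S100a8 differed by 4.26 ± 1.38 (SE, adjusted p = 0.0545 in limma) and Defb6 by 8.03 ± 2.64 (adjusted p = 0.0571). S100a9 differed by 3.53 ± 1.26 (adjusted p = 0.0730) and Defb1 by 3.62 ± 1.47 (adjusted p = 0.103). Lcn2 differed by 1.39 ± 0.89, Defb14 by 2.06 ± 1.98, Defb3 by 1.52 ± 1.52, Slpi by 0.95 ± 2.16 and Defb4 by -0.12 ± 1.56, with limma adjusted p of 0.274 or more. The outcome depended on which libraries shared the estimate of spread. With only the 2 groups in the fit, 5 of 9 genes were called, against 22.1% of all genes.

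Against Cdx2-Apc, 3 of the 9 genes were called higher in Lgr5-Cdx2-Apc, against 12.1% of all genes. S100a8 was higher by 4.84 ± 1.38 (SE, limma adjusted p = 0.0314). The level of Defb6 was higher by 8.62 ± 2.64 (limma adjusted p = 0.0404) and that of S100a9 by 4.11 ± 1.26 (limma adjusted p = 0.0408). The libraries of these genes and of Defb1 did not overlap, as for 33.4% of all genes in this direction, and Defb1 differed by 4.26 ± 1.47 (limma adjusted p = 0.0584). Slpi (0.05 ± 2.16) and Defb4 (0.08 ± 1.56) differed by less than their errors. The calls rested on few libraries. Without any 1 of the Cdx2-Apc libraries 0 of 9 genes were called, and without control 2 or control 3 only 1 was. Over all genes, 2103 were called higher with all libraries. That count was 1221, 701 and 1141 without Cdx2-Apc 1, 2 and 3, and 1833 and 1682 without control 2 and 3. Without Lgr5-Cdx2-Apc 1 or 2 that group held 1 library, so calls are not counted there. Over all 12 fits without 1 library, S100a8 differed by 3.75 to 5.94, Defb6 by 7.87 to 9.65 and S100a9 by 3.04 to 5.19. The 2 groups did not overlap either in smooth muscle, columnar, goblet cell, squamous and skeletal muscle scores or in Xist. In this comparison 7 of 7 smooth muscle markers, 8 of 9 columnar markers and 4 of 8 goblet cell markers were called lower in Lgr5-Cdx2-Apc, and their part in these differences was not tested apart from the score fit described further on.

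Setting both drivers against the Lgr5 driver alone asks what the Cdx2 driver added. In this comparison 8.99% of all genes were called and 0 of the 9. An unadjusted p below 0.05 was seen in limma for 2 of the 9 and for 5107 of all 17360 genes. The 9 genes pointed both ways. Defb6 differed by 5.67 ± 2.51 (SE, limma adjusted p = 0.163) and its libraries did not overlap, as for 18.1% of all genes in this direction. S100a8 differed by 2.42 ± 1.31, S100a9 by 2.00 ± 1.20, Defb1 by 1.86 ± 1.39 and Lcn2 by 0.45 ± 0.84. Defb4 differed by -3.41 ± 1.48 (limma adjusted p = 0.156), Slpi by -2.42 ± 2.05, Defb14 by -1.67 ± 1.88 and Defb3 by -0.91 ± 1.44.

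The comparisons without the double-driver group gave no calls among the 9 genes. In Lgr5-Apc against control, 0.0115% of all genes were called. Of the 9 genes 2 had an unadjusted p below 0.05 in limma, against 1881 of all 17360 genes. All 9 differences were above 0 with a median of 2.36, against 9340 of all 17360 genes and a median of 0.03. All 22 squamous markers were above 0 as well, with a median of 2.37. The 9 genes were high together in Lgr5-Apc 2 and 3, so their signs are not separate observations. The libraries of every gene overlapped (3.96% of all genes lay higher with no overlap). Defb14 (3.73 ± 1.66, limma adjusted p = 0.455), Slpi (3.37 ± 1.81, adjusted p = 0.504) and Defb4 (3.29 ± 1.30, adjusted p = 0.431) had the largest differences. In Lgr5-Apc against Cdx2-Apc, 0.0346% of all genes were called and 0 of the 9, with 1 at an unadjusted p below 0.05 (Defb4, 3.48 ± 1.30, limma adjusted p = 0.421). Over all genes, 1800 of 17360 had such an unadjusted p. In Cdx2-Apc against control, 0.0403% of all genes were called and 0 of the 9. At an unadjusted p below 0.05 in limma were 0 of the 9 and 285 of all 17360 genes. The differences of the 9 ran from -0.63 for Defb1 to 1.04 for Defb14. All these comparisons share libraries, so their values are given side by side and not counted as separate support.

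**Figure D3:**
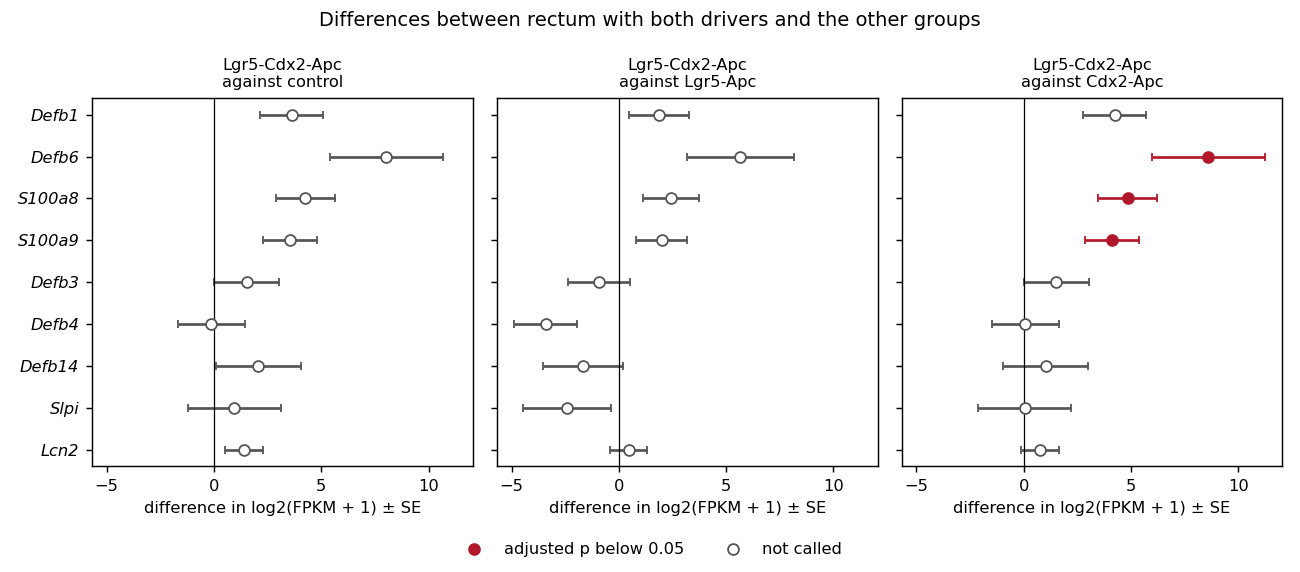
Points are differences in log2(FPKM + 1) of Lgr5-Cdx2-Apc from control, Lgr5-Apc and Cdx2-Apc for the 9 genes, and bars are ± 1 SE from limma; filled points have an adjusted p below 0.05. Filled are Defb6, S100a8 and S100a9 against Cdx2-Apc, and in the middle panel Defb4, Slpi, Defb14 and Defb3 lie left of 0 while the other 5 genes lie right of it.

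Of the 9 genes, 8 were grouped into a pair of sets across libraries, read from the values themselves and given as a description. Defb1, Defb6, S100a8 and S100a9 had Pearson's r of 0.955 to 0.975 with one another over 12 libraries, in log2(FPKM + 1). Defb3, Defb4, Defb14 and Slpi had r of 0.834 to 0.931 with one another. Between the sets r was 0.456 to 0.818, so the highest r between the sets came close to the lowest within the second. Lcn2, with r of 0.669 to 0.864 with the others, was put in neither set. The libraries share their group, their mix of epithelia and their scaling, and many are listed at 0. The first set went with keratins of basal and cornifying layers: r with Krt5, a basal keratin, was 0.92 for Defb6, 0.91 for S100a9, 0.90 for Defb1 and 0.85 for S100a8, against 0.44 to 0.63 for Defb4, Defb3, Defb14 and Slpi. With Krt4, a keratin of squamous linings such as the esophagus, r was 0.85 for Slpi, 0.84 for Defb14, 0.80 for Defb4 and 0.78 for Defb3. In the first set r with Krt4 was 0.73 for S100a9, 0.70 for Defb1, 0.64 for S100a8 and 0.58 for Defb6. With Sprr1b, a gene of the cornified envelope, r was higher than with Krt4 for Defb3 (0.94), Defb14 (0.90) and Defb4 (0.85), and about as high for Slpi (0.84). In the first set r with Sprr1b was 0.78 to 0.89.

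Krt5 had 2790 and 2881 FPKM in Lgr5-Cdx2-Apc, and 2075 and 672 FPKM in Lgr5-Apc 2 and 3. Krt4 had 1.44 and 494 FPKM in Lgr5-Cdx2-Apc, and 7351 and 3597 FPKM in Lgr5-Apc 2 and 3. Both groups of libraries were thus rich in basal keratin, while Krt4 was lower in Lgr5-Cdx2-Apc than in Lgr5-Apc 2 and 3. Per 100 FPKM of Krt5, Slpi was at 0.28 and 0.66 FPKM in Lgr5-Cdx2-Apc, at 43.1 and 71.6 FPKM in Lgr5-Apc 2 and 3, and at 57.8 FPKM in Lgr5-Apc 1. On this scale Slpi was at 32.8 FPKM in Cdx2-Apc 3 and at 1.19, 17.6 and 46.1 FPKM in the 3 control libraries, so Lgr5-Cdx2-Apc lay below all of these. Krt5 itself was only at 17.6 and 12.4 FPKM in control 2 and 3, which raises their ratios. Without this scaling, Slpi overlapped between Lgr5-Cdx2-Apc (7.86 and 19.0 FPKM) and control (3.08 to 10.98 FPKM). Per 100 FPKM of Krt5, Defb4 was at 0 and 0.02 FPKM in Lgr5-Cdx2-Apc, at 8.74, 3.89 and 10.1 FPKM in Lgr5-Apc 1, 2 and 3, at 0 in Cdx2-Apc 3 and at 0.14, 0 and 0 FPKM in control. Defb6 overlapped between Lgr5-Cdx2-Apc and Lgr5-Apc on this scale, with 17.2 and 46.6 FPKM in Lgr5-Cdx2-Apc, against 0, 12.2 and 36.4 FPKM in Lgr5-Apc 1, 2 and 3, 4.39 FPKM in Cdx2-Apc 3, and 3.05, 0 and 0 FPKM in control. Lgr5-Apc 4 and Cdx2-Apc 1 and 2 had 5.53 FPKM of Krt5 or less and are left out of these ratios. Slpi was at 1.21, 2.57 and 9.27 FPKM in these libraries. In bulk tissue, fewer cells of a type and less RNA per cell cannot be told apart.

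**Figure D4:**
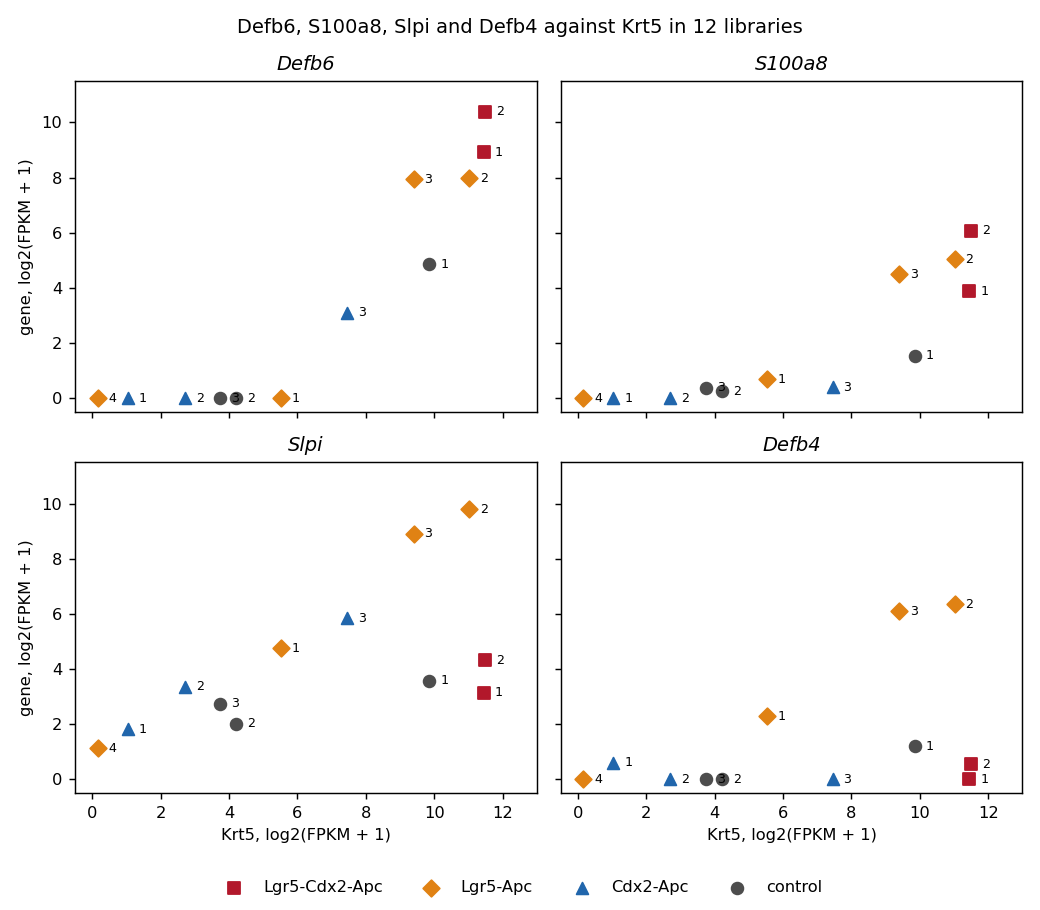
Each panel plots 1 gene (vertical) against Krt5 (horizontal), both in log2(FPKM + 1), for 12 libraries with replicate numbers. At a Krt5 level shared with Lgr5-Apc 2 the Lgr5-Cdx2-Apc points are at the top for Defb6 and far below Lgr5-Apc 2 and 3 for Slpi and Defb4.

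A fit with the squamous score as a covariate put these differences to a test at equal score. In Lgr5-Cdx2-Apc against Lgr5-Apc, 9.72% of all genes were called in that fit (5.69% higher and 4.03% lower), and 3 of the 9 genes. Defb4 was lower by a log2 difference of -4.57 ± 0.77 (SE, limma adjusted p = 0.00822). Slpi was lower as well, by -4.16 ± 0.76 (limma adjusted p = 0.0117), and Defb6 was higher by 3.54 ± 0.90 (limma adjusted p = 0.0389). Fits that also left out 1 library at a time called Defb4 and Slpi in 10 of 12 and Defb6 in 3 of 12. Both calls were lost when either Lgr5-Cdx2-Apc library was left out, with limma adjusted p of 0.0625 and 0.0864 for Defb4 and 0.0791 and 0.102 for Slpi, at nearly unchanged differences (-4.79 to -4.13 for Defb4 and -4.43 to -3.83 for Slpi over the 12 fits). Defb6 kept its call only without Lgr5-Apc 1, 2 or 4, and its difference was 2.79 to 4.11. Defb14 was called in 1 of the fits that kept both Lgr5-Cdx2-Apc libraries, without control 1 (-3.44, limma adjusted p = 0.0233).

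Against Cdx2-Apc at equal score, 4.21% of all genes were called, 1.93% lower, and 1 of the 9. This was Slpi, lower by -4.82 ± 0.97 (limma adjusted p = 0.0282) and called in 6 of 12 fits without 1 library. It lost the call without Lgr5-Cdx2-Apc 1 or 2, Lgr5-Apc 3 or 4, or Cdx2-Apc 2 or 3, with adjusted p up to 0.131 in limma. S100a8 (1.92, limma adjusted p = 0.196), Defb6 (2.64, adjusted p = 0.196) and S100a9 (1.18, adjusted p = 0.135) were not called there. Defb6 was called in 1 of 12 fits without 1 library (without Lgr5-Apc 1, 3.03, limma adjusted p = 0.00584). The scores of Cdx2-Apc, 0.93 to 4.34, do not reach those of Lgr5-Cdx2-Apc, so this comparison extends a straight line beyond the scores of Cdx2-Apc. The control scores, 1.85 to 6.32, lay below those of Lgr5-Cdx2-Apc (6.996 and 8.48) too. The comparison with control therefore has the same limit. Against control at equal score 7.45% of all genes were called and 0 of the 9, and Slpi stood at -2.83 (limma adjusted p = 0.0800). In fits without 1 library, 4 genes were called in 1 of 12 fits each: Slpi without control 1 (-4.51, limma adjusted p = 0.0157), Defb6 without Lgr5-Apc 1 (3.70, adjusted p = 0.00260), S100a9 without Lgr5-Cdx2-Apc 1 (2.02, adjusted p = 0.0401) and Defb4 without Cdx2-Apc 3 (-3.00, adjusted p = 0.0468). The score holds Krt4 and Krt13 as well as Krt5 and Krt1, and a fit with each kind of squamous layer apart was not made.

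Genes with the profile most like each of the 9 were searched among 9337 genes that averaged 5 FPKM or more, by Pearson's r over the 12 libraries. Defb1 was most like Dsg1b, a desmosomal cadherin of the epidermis (r = 0.998), followed by Tprg and Adgrf4. Defb6 was most like Stfa3, a cysteine protease inhibitor of the stefin A family (r = 0.994), followed by Krt79 and Stfa1. S100a8 was most like Il1f9, which encodes interleukin 36 gamma (r = 0.993), followed by Tuba8 and Endou, and S100a9 was most like Flg, the filaggrin gene of cornifying epidermis (r = 0.990), followed by Gsdmc and Dsg1b. In the other set, late cornified envelope genes of the Lce3 group were among the nearest for Defb4, Defb14 and Defb3. Defb4 was most like Lce3b (r = 0.982), Lce3a and Lce3e, and Defb14 most like Lce3f (r = 0.941), Klk14 and Qars. Defb3 was most like Chil4, a chitinase-like gene (r = 0.973), then Lce3e and Lce3f. Slpi had the least close neighbours, with Eftud2 (r = 0.917), Klk14 and Lpar5. Lcn2 averaged 3.18 FPKM and was left out of this search.

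The other Defb genes in the table were mostly silent. Beyond the 5 beta-defensins above, 11 genes with a Defb symbol were in the table, and 9 of them did not reach 1 FPKM in 2 libraries. Defb45 was listed at 0 in both Lgr5-Cdx2-Apc libraries, against 23.3, 2.76, 19.7 and 0 FPKM in Lgr5-Apc, 10.7, 7.88 and 12.5 FPKM in Cdx2-Apc, and 35.7, 11.9 and 13.9 FPKM in control. It was lower in Lgr5-Cdx2-Apc than in control by -4.26 ± 1.14 (SE, limma adjusted p = 0.0297), in the opposite direction from Defb6. Defb37 had 5.73 and 2.98 FPKM in Lgr5-Cdx2-Apc and a highest value of 72.5 FPKM in Lgr5-Apc 4.

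Other genes of these pathways were read from lists in Lgr5-Cdx2-Apc against control, where 10.5% of all genes were called higher and 8.55% lower. Smooth muscle markers (7 of 7), columnar markers (8 of 9) and goblet cell markers (3 of 8) were called lower in the same comparison, and their part in the list genes that fell was not tested. Of 12 other S100 genes tested, 0 were called higher and 3 lower: S100a13 (-1.19, limma adjusted p = 0.0119), S100a1 (-1.28, adjusted p = 0.0279) and S100a6 (-1.69, adjusted p = 0.0376). S100a10 stood at -0.76 (adjusted p = 0.0543). These genes are expressed in many cell types, and the median of the list was 0.03. Of 24 other alarmins and antimicrobial proteins, 4 were called higher and 3 lower. Wfdc2, a secreted relative of Slpi with the same kind of inhibitor fold, was lower by -4.29 (limma adjusted p = 0.00886), Pglyrp1, a peptidoglycan-binding protein, by -4.23 (adjusted p = 0.0149) and the acute phase gene Saa1 by -3.90 (adjusted p = 0.0163). Il1a, an alarmin that keratinocytes store, was higher by 2.27 (limma adjusted p = 0.0288).

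Interleukin 17 and 22 signalling induces several of the 9 genes in skin, and the list of its 15 tested genes had 4 called higher and 1 lower in Lgr5-Cdx2-Apc against control. The RNase gene Zc3h12a was higher by 1.19 (limma adjusted p = 0.0206) and Cebpb, a transcription factor of the C/EBP family, by 2.63 (adjusted p = 0.0208). Cxcl2, a neutrophil-attracting chemokine, was higher by 1.33 (limma adjusted p = 0.00301). It had only 1.37 and 1.82 FPKM in Lgr5-Cdx2-Apc and reached 1 FPKM in no other library. Cxcl2 thus entered the test only through the group in which it was high, and its call is no support. Il10rb, a chain of the interleukin 22 receptor, was lower by -1.42 (limma adjusted p = 0.0194). Among 11 receptors of defensins and alarmins, 1 was called higher and 3 lower. Mc5r, a melanocortin receptor, was higher by 3.39 (limma adjusted p = 0.0145), and Tlr4, which senses calprotectin, was lower by -1.39 (adjusted p = 0.00794), as were Tlr1 (-2.75, adjusted p = 0.0181) and Cd14 (-1.31, adjusted p = 0.0385). Columnar scores (3.75 to 6.33 in Lgr5-Cdx2-Apc, 7.92 to 8.55 in control) and smooth muscle scores (2.50 to 3.38 in Lgr5-Cdx2-Apc, 8.65 to 8.97 in control) fell with these receptors and with Il10rb, and their part was not tested.

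Of 13 serine proteases that Slpi restrains, kallikreins and their inhibitors, 3 were called higher and 2 lower. Mcpt4, a mast cell protease, was higher by 2.50 (limma adjusted p = 0.00247), Klk5 by 5.42 (adjusted p = 0.0114) and Klk7 by 6.67 (adjusted p = 0.0308), both kallikreins that shed cornified cells in skin. Spint1, a membrane-bound protease inhibitor, was lower by -1.45 (limma adjusted p = 0.0184), in the libraries with the lower columnar scores. Klk5 and Klk7 were thus called higher and Slpi (0.95 ± 2.16, SE) was not. The error of Slpi leaves room for a rise or a fall, and these genes were not tested against each other. None of the 4 stress keratins was called in limma, with 2 at an unadjusted p below 0.05, against 6412 of all 17360 genes. Krt16 stood at 4.29 (limma adjusted p = 0.0803), Krt17 at 5.21 (adjusted p = 0.0912), Krt6a at 2.57 (adjusted p = 0.464) and Krt6b at 0.35 (adjusted p = 0.930). Of 22 squamous markers 3 were called higher and 0 lower, with a median of 4.94. Of 20 called genes named from these lists and the defensin family, 18 lost the call in at least 1 fit that left out a library, all of them without Lgr5-Cdx2-Apc 2. The other two, Cxcl2 and Mcpt4, reached 1 FPKM only in the Lgr5-Cdx2-Apc libraries, passed the filter through them and could not be tested without either.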

How the data were processed

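Bulk mouse rectum RNA was extracted with RNeasy Plus kits and DNase, and strand-specific libraries were made with the NEBNext Ultra II Directional kit, per the labels' protocols. The table deposited by the authors holds FPKM, with 1 value for each gene in each library. STAR, Cufflinks, Cuffdiff and the mm10 genome are named per the submitters' processing notes; their versions, roles and annotation are not given in the sources used here. The table's header names no unit, and FPKM was taken from these tools and checked against the values: decimals, with totals of 451297 to 728462 per library. Whole reads were not recovered, so depth in reads is unknown, no counting interval could be given, and a 0 is written as listed at 0.

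Of 27831 lines, 25 were named as dates and 46 symbols were repeated; of repeated lines the one with the largest mean was used, giving 27785 genes. The 17360 genes that reached 1 FPKM in 2 or more of 12 libraries were tested as log2(FPKM + 1), a pseudocount of 1 FPKM, with limma 3.58.1 in R 4.3.3 (a term per group over all libraries, intensity trend, two-sided, Benjamini-Hochberg adjustment within each of 6 contrasts, threshold 0.05), and the script was tested on simulated data. Alternatives were another pseudocount and filters, 2 further scalings, the compared groups alone, a replicate block, the squamous score as a covariate and each library left out. Promoter windows were aligned with Biopython 1.88. The 9 genes were named whatever their values, as were the other Defb genes that passed the filter, the 4 genes with the smallest p of each list in Lgr5-Cdx2-Apc against control, and the 3 most alike genes. The members and lists were chosen with earlier results of these data known.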

Additional observations from a re-analysis of the deposited data

Results flagged for a closer look

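In Lgr5-Apc, the group with 4 libraries, 35 genes named here were checked for a library far from the others by Dixon's test, and 5 were found. The nominal rate of about 1 in 20 holds for independent genes, whereas these 35 share the same 4 libraries. The count of 5 therefore cannot be set against that rate. S100a1 was at 48.4 FPKM in Lgr5-Apc replicate 2, apart from the other 3 libraries of the group. Pglyrp1 was at 34.0 FPKM in Lgr5-Apc replicate 2, also apart from the rest. Tlr1 was at 5.54 FPKM in that library as well. Cxcl2 was at 0.179 FPKM in Lgr5-Apc replicate 3, with the other 3 libraries at 0, where any value above 0 is flagged. Defb37 was at 72.5 FPKM in Lgr5-Apc replicate 4.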

How the results depend on the processing

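The 9 genes gave 0 calls under every alternative in Lgr5-Apc against control, Cdx2-Apc against control and Lgr5-Apc against Cdx2-Apc. In Lgr5-Cdx2-Apc against control the count of 0 became 2 with quantile normalization, 5 with the compared groups alone, 5 without Lgr5-Apc 2 and 3 and 2 with short RNAs removed and totals made equal (the last 2 chosen after seeing the data), and 0 to 3 with 1 library left out. In Lgr5-Cdx2-Apc against Lgr5-Apc the count of 0 became 3 with the squamous score as a covariate, 5 without Lgr5-Apc 2 and 3, and 0 to 1 with 1 library left out. In Lgr5-Cdx2-Apc against Cdx2-Apc the count of 3 became 1 with a pseudocount of 0.1 FPKM, 1 with no filter, 1 with the covariate, and 0 to 4 with 1 library left out. Over all genes, leaving out 1 library gave 50 to 4678 calls in Lgr5-Cdx2-Apc against control (3315 with all), 41 to 4453 against Lgr5-Apc (1560) and 109 to 5324 against Cdx2-Apc (4132), and the compared groups alone gave 162 against Lgr5-Apc. In Lgr5-Cdx2-Apc against control, quantile normalization called 2018 genes higher and 2057 lower over all genes. Removal of short RNAs called 2686 higher and 1080 lower there. Against Cdx2-Apc, a pseudocount of 0.1 FPKM called 1663 higher and 2109 lower, and no filter 2316 higher and 1722 lower. Without Lgr5-Apc 2 and 3, 8 of the 9 genes were tested, and 29.1% of all genes were called against control and 27.7% against Lgr5-Apc. Lgr5-Apc 2 and 3 were left out because these genes were high in them, so the values without them follow in part from that choice and support nothing. With 1 library of Lgr5-Cdx2-Apc left, that library is assumed to vary like the other groups. The cause of these changes was not tested, beyond the fewer libraries themselves.

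Libraries of different groups share replicate numbers, but same-numbered libraries did not deviate together (15 pairs, median r of -0.0203, -0.301 to 0.422). With the replicate block, 1 of the 9 genes was called in Lgr5-Cdx2-Apc against control (S100a8, 4.43, limma adjusted p = 0.0411), 3 against Cdx2-Apc and 0 elsewhere. Over all genes, the block fit called 1459 higher and 1544 lower in Lgr5-Cdx2-Apc against control. It called 1794 higher and 2236 lower against Cdx2-Apc, and 339 higher and 240 lower against Lgr5-Apc.

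Several log2 differences changed sign. With the covariate, against control, Lgr5-Cdx2-Apc had -0.59 for Defb3, -1.07 for Defb14, -2.83 for Slpi, -1.79 for Krt6a and -3.79 for Krt6b, Lgr5-Apc had -0.15 for Defb6, and Cdx2-Apc had 0.12 for Defb1, 0.54 for Defb4, 0.76 for Defb6, 0.0715 for S100a8 and 0.0757 for S100a9. With it, Lgr5-Cdx2-Apc had -0.14 for Lcn2 against Lgr5-Apc and, against Cdx2-Apc, -1.20 for Defb3, -3.18 for Defb4, -3.02 for Defb14, -4.82 for Slpi and -0.91 for Lcn2. Lgr5-Apc against Cdx2-Apc had -0.90 for Defb6, -0.67 for Slpi and -0.77 for Lcn2. Without Lgr5-Apc 2 and 3, Lgr5-Apc against control had -0.51 for Defb1, -1.62 for Defb6, -0.38 for S100a8, -0.19 for S100a9 and -0.46 for Lcn2. Lgr5-Apc against Cdx2-Apc then had -1.04 for Defb6, -0.0735 for Defb14, -0.73 for Slpi and -1.10 for Lcn2, and Lgr5-Cdx2-Apc against Lgr5-Apc had 1.10 for Defb14 and 0.79 for Slpi. A pseudocount of 0.1 FPKM gave -0.0378 for Lcn2 in Lgr5-Apc against Cdx2-Apc.

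With 1 library left out, sign changes were seen in these ranges. Cdx2-Apc against control spanned -1.11 to 0.25 for Defb1, -0.40 to 0.21 for Defb4, -1.62 to 1.04 for Defb6, -1.04 to 0.0933 for S100a9 and -0.19 to 1.82 for Slpi. Lgr5-Cdx2-Apc against control spanned -0.40 to 0.28 for Defb4 and -2.26 to 2.97 for Krt6b. Lgr5-Cdx2-Apc against Lgr5-Apc spanned -2.43 to 0.61 for Defb3, -3.73 to 0.40 for Defb14 and -0.11 to 1.08 for Lcn2. Lgr5-Cdx2-Apc against Cdx2-Apc spanned -0.21 to 0.36 for Defb4, -1.04 to 3.09 for Defb14 and -0.87 to 1.14 for Slpi, and Lgr5-Apc against Cdx2-Apc spanned -0.33 to 0.86 for Lcn2.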
